A study of Mus musculus with 6 samples.

Results

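Arterial endothelial cells line the vessels that bring blood into the brain. These cells were studied here in the mouse hypothalamus as single cells that carried both general endothelial transcripts and transcripts of the arterial genes Sema3g, Bmx, Edn1 or Gkn3. Of 9449 cells that passed quality limits, 993 met the endothelial rule and 267 of those met the arterial rule. A passing cell had at least 300 detected genes and at most 20% of its unique molecular identifiers (UMIs, which mark single captured transcripts) in mitochondrial genes. An endothelial cell had at least 3 UMIs over Cldn5, Flt1, Ly6c1, Pecam1, Itm2a and Ptprb, and at most 1 UMI over 6 genes of neurons, mural cells, microglia and oligodendrocytes (Snap25, Syt1, Kcnj8, Acta2, C1qa and Mog). An arterial cell was an endothelial cell with at least 1 UMI over the 4 arterial genes. The remaining 726 are called other endothelial cells. An arterial cell with no captured UMI of the 4 genes would fall among them. Median depth was 646.5 UMIs in other endothelial and 813 in arterial cells. The cells were thus selected on the UMI counts of 16 genes, so these genes were left out of each comparison of levels between classes. They stayed in the tests of genotype, which was not used to choose the cells, and are otherwise described as values.

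Hypothalamus of C57BL/6J mice aged 8 weeks was dissociated and run through Drop-seq, a droplet method that reads the 3′ end of transcripts in single cells. There were 3 libraries from wild-type mice (WT1, WT2 and WT3) and 3 from mice lacking IDOL (KO1, KO2 and KO3), an E3 ubiquitin ligase that is encoded by Mylip and sends lipoprotein receptors to degradation. Libraries were prepared on 2 days, with genotypes mixed, but the day of each library is not given, nor is the number of animals per library or the part of Mylip that was deleted. Differences between libraries may therefore be technical, and p-values measure only the spread between libraries. Values per library are given throughout in the order WT1, WT2, WT3, KO1, KO2, KO3. Arterial cells numbered 24, 27, 47, 35, 49 and 85 in this order. Their summed counts ran from 32746 UMIs in WT1 to 97075 in KO3, with a median of 813 UMIs per cell over all 267 cells. The doublet caller Scrublet marked 116 of the passing cells (1.23%) and 1 of the arterial cells, in KO3. Libraries shared 3 cell barcodes in all, and 0 of these were arterial cells.

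Brain arteries, capillaries and veins differ in the genes of their endothelium, and expression shifts along the vessel from artery to vein. Arterial endothelium is known for Notch signalling, for the transcription factor Sox17 and for secreted proteins that act on the vessel wall, among them the endothelins. Capillary endothelium carries most of the nutrient transporters of the blood-brain barrier. Sema3g encodes a secreted semaphorin, Bmx a cytoplasmic tyrosine kinase, Edn1 the vasoconstrictor peptide endothelin 1, and Gkn3 a secreted gastrokine. Cldn5 encodes the main claudin of brain endothelial tight junctions.

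Sequences of 4 genes that separated arterial from other endothelial cells in the comparisons below are shown first, because they moved together or in opposition to each other. Each is the 250 bases before the RefSeq transcription start (GRCm38.p6), on the gene's strand. Tm4sf1 lies at chr3:57301989-57302238 on the minus strand. Edn3 lies at chr2:174760369-174760618, Glul at chr1:153899679-153899928 and Car4 at chr11:84957504-84957753, all on the plus strand. Capitals mark matches on either strand to CACCC, a motif of KLF factors, to TGGGAA, a motif of the Notch factor RBPJ, to AACAAT, a SOX motif, and to CACGTG, a motif bound by HEY factors.
Tm4sf1: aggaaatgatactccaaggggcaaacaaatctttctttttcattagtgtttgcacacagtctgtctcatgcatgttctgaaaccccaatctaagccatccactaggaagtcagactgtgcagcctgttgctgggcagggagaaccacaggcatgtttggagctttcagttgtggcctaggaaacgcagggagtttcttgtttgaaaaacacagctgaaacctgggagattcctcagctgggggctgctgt
Edn3: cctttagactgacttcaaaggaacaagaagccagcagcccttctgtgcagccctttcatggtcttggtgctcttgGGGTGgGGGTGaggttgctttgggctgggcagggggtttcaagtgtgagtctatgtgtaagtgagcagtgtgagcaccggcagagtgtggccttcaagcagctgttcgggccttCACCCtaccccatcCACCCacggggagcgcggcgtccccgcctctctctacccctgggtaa
Glul: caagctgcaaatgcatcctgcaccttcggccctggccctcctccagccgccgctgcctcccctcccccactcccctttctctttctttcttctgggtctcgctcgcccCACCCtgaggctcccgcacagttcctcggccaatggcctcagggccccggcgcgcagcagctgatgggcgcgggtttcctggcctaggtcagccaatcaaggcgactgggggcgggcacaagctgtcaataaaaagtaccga
Car4: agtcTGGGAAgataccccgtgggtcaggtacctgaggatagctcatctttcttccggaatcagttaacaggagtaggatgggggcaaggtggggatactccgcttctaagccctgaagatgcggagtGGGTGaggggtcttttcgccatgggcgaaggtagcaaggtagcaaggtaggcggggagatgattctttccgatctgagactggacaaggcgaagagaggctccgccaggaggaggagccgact
CACCC occurred 4 times in the window of Edn3 and once each in those of Glul and Car4, against 51.3% of 27025 mouse promoter windows of the same length with at least 1 match. TGGGAA occurred once, in Car4, against 21.5% of windows. Of the other windows searched, that of the arterial-list gene Crip1 held TGGGAA once and CACCC 2 times, and that of the capillary gene Ivns1abp had no match to any of the 4 motifs. AACAAT (9.65% of windows) and CACGTG (6.05%) had no match in these 4 windows, which says only that these letters are absent there.

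The genes that chose the cells were unequally shared among them. Edn1 alone marked 100 cells (37.5%), Sema3g alone 27, Bmx alone 21 and Gkn3 alone 21. Thus 169 cells (63.3%) rested on a single gene of the 4, 61 had 2 genes, 34 had 3 and only 3 cells had all 4. A single UMI placed 113 cells (42.3%) in the class, and the highest count in a cell was 28 UMIs. At the edges of the rule, 52 cells had 1 UMI of the genes of other cell types and 24 otherwise arterial cells had 2 and stayed outside. Median depth was 1203 UMIs in the former and 1367 in the latter. Only 3 arterial cells had exactly 3 endothelial UMIs.

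Levels of the rule genes, as UMIs per 1000000 UMIs of all genes (CPM), overlapped between the genotypes. Edn1 was at 611, 650, 1549, 1069, 1181 and 886 CPM in the 6 libraries. Gkn3 ran from 397 to 1012 CPM, Sema3g from 244 to 497 CPM and Bmx from 267 to 397 CPM. WT3 was highest for Edn1, Sema3g and Bmx, and WT2 for Gkn3, and KO1 was lowest for Bmx. The general endothelial gene Cldn5 ran from 337 CPM in WT2 to 824 CPM in KO1, beside 459 to 825 CPM in other endothelial cells with at least 1% of their UMIs in the 6 endothelial genes. With each cell thinned to 500 UMIs, Edn1 had a UMI in 42.2% of 225 arterial cells and in 0 of 1760 neurons, a type that should lack it. The arterial cells were chosen in part on Edn1 and the neurons were not, so the contrast follows from the rule. Without thinning these shares were 62.5% and 0.108%. C1qa, a microglial gene, had 0 UMIs in arterial cells, and Mog, Snap25, Syt1, Acta2 and Kcnj8 had between 3 and 17 UMIs each. The rule allows a cell at most 1 UMI over these genes, so their low counts follow from it.

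Among the genes with the highest levels in arterial cells, as means over 6 libraries, were mt-Rnr2 (36662 ± 15828 CPM, SD), Malat1 (22523 ± 1908 CPM), Ly6c1 (7768 ± 1874 CPM), Hbb-bs (6180 ± 7378 CPM), Tmsb4x (5969 ± 698 CPM), Bsg (5080 ± 1075 CPM), Ly6a (4797 ± 1159 CPM), Flt1 (4707 ± 582 CPM) and Fos (4167 ± 1312 CPM). Ly6c1, Ly6a, Flt1 and the barrier glycoprotein Bsg are endothelial genes. Hbb-bs, a globin gene of red blood cells, ran from 20.7 to 19536 CPM between libraries. Summed levels of 5 red blood cell genes were 30.5, 29292, 9992, 2918, 62.2 and 10631 CPM, with high and low libraries in both genotypes.

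**Figure D1:**
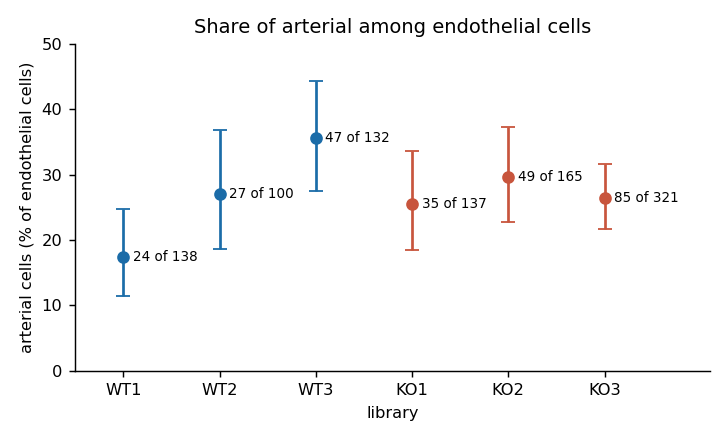
Arterial cells as a percentage of endothelial cells in each library (y axis, %), with exact Clopper-Pearson 95% intervals for counting error and the cell counts beside each point. The 3 WT libraries run from 17.4% to 35.6% and the 3 KO libraries from 25.5% to 29.7%, within the WT range at full depth.

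Arterial cells made up 17.4% (95% interval 11.5% to 24.8%) of endothelial cells in WT1, 27% (18.6% to 36.8%) in WT2 and 35.6% (27.5% to 44.4%) in WT3. In the knockout they made up 25.5% (18.5% to 33.7%), 29.7% (22.8% to 37.3%) and 26.5% (21.7% to 31.7%) in the order KO1, KO2, KO3. Intervals are exact Clopper-Pearson and cover counting error only. At full depth all KO shares lay between the lowest and the highest WT share. Means were 26.7% ± 9.11 (SD, n = 3) in WT and 27.2% ± 2.18 (SD, n = 3) in KO, a difference of 0.576 percentage points (2-sided exact permutation p = 1, where the smallest p that 3 against 3 libraries allow is 0.1). Its sign turned without WT1 (-4.06 percentage points) and without KO2 (-0.652), and without WT3 the difference was 5.05. With the rules applied to cells thinned to 500 UMIs, shares were 19.4%, 28.6% and 30.8% in WT and 18.9%, 33.9% and 28.9% in KO. KO1 then lay below and KO2 above all WT shares, with a difference of 0.951 percentage points. As a share of all passing cells, arterial cells were 3.1% ± 1.09 in KO and 2.62% ± 1.38 in WT (2-sided exact permutation, p = 0.6). Their median depth was 857 ± 146 UMIs per cell in KO and 938 ± 273 in WT (2-sided exact permutation, p = 0.7). Over the 5 measures tested in this way, each adjusted p was 1.

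Arterial cells were next compared with other endothelial cells of the same libraries, which asks what else marks them beyond the rule. UMIs were summed per library and class, and each library formed a block in edgeR's quasi-likelihood F test, with Benjamini-Hochberg adjustment over all genes tested and a threshold of 0.05. Of 1724 genes tested, 186 passed (10.8%), 116 higher and 70 lower in arterial cells, and 122 passed without KO2. Among the genes with the smallest p were several that were lower in arterial cells. Lmo4, a transcriptional cofactor, was at 42.3 ± 36.8 CPM in arterial and 595 ± 128 CPM in other endothelial cells (log2 ratio -3.66), and the metallothionein Mt1, abundant in astrocytes, at 880 ± 303 against 6028 ± 3701 CPM (-2.62). In other endothelial cells, those with less than 1% of their UMIs in the 6 endothelial genes were 17.9% of the cells but held 54.3% of the UMIs, with up to 59075 UMIs in a cell. In arterial cells the same cells were 8.24% of cells and held 6.58% of UMIs. Summed astrocyte markers were at 241 to 567 CPM in arterial and 558 to 2824 CPM in other endothelial cells.

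The comparison was therefore repeated on cells with at least 1% of UMIs in the 6 endothelial genes, a limit chosen after the data had been seen that left 245 arterial and 596 other endothelial cells. Astrocyte markers then summed to 223 to 483 CPM in arterial and 218 to 461 CPM in other endothelial cells. Of 937 genes tested, 38 passed (4.06%), 23 higher (2.45%) and 15 lower (1.6%), and 21 of the 38 had also passed without the limit. Leaving out a library left 19 genes without KO1, 21 without WT3 and 25 without KO3. Per-library values in the comparisons between classes below are CPM of the tested genes and come from these cells.

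Mgp and Tm4sf1 had the smallest p of all genes tested. Mgp, matrix Gla protein, an inhibitor of calcification, was at 2593, 1737, 5597, 5593, 3058 and 2633 CPM in arterial cells, against 567, 190, 545, 538, 288 and 735 CPM in other endothelial cells. The lowest arterial library was above the highest library of the other class, with a log2 ratio of 2.76 ± 0.20 (SE, edgeR adjusted p = 3.2e-08). Mgp did not pass without the 1% limit (log2 ratio 0.58 ± 0.66, edgeR adjusted p = 0.642), when its level in other endothelial cells was 3249 ± 3205 CPM. Mgp lies on chromosome 6 from 136872435 to 136875823, minus strand (GRCm38, GENCODE M21, protein coding).

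Tm4sf1, a transmembrane 4 L6 family protein of endothelial cells, was at 2483, 3428, 3951, 3805, 2886 and 3038 CPM in arterial cells and at 1224, 949, 1261, 926, 943 and 1327 CPM in the others. The classes did not overlap, with a log2 ratio of 1.53 ± 0.14 (edgeR adjusted p = 6.4e-07), and the ratio was 1.70 without the 1% limit. Edn3, which encodes endothelin 3, a peptide of the same family as the rule gene Edn1, was at 1931, 1409, 805, 1330, 1680 and 1600 CPM against 544, 683, 852, 329, 367 and 625 CPM. It was higher in arterial cells of 5 libraries and about level in WT3, with a log2 ratio of 1.37 ± 0.22 (edgeR adjusted p = 9.2e-04). Timp3, an inhibitor of matrix metalloproteinases, was at 5815 to 7533 CPM in arterial and 2279 to 4233 CPM in other endothelial cells (0.98 ± 0.11, edgeR adjusted p = 1.7e-05).

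Sox17, a transcription factor of arterial fate, was at 1104, 1315, 1646, 1421, 1809 and 1397 CPM in arterial cells and at 771, 570, 886, 777, 996 and 965 CPM in the others. It was higher in arterial cells of all 6 libraries (log2 ratio 0.78 ± 0.15, edgeR adjusted p = 0.00431). Glul, glutamine synthetase, was higher in 5 of 6 libraries, at 2648 to 3969 CPM against 1614 to 2720 CPM (0.78 ± 0.14, edgeR adjusted p = 0.00152), and Crip1, a small LIM-domain protein, in 6 of 6, at 963 to 2488 CPM against 646 to 920 CPM (0.81 ± 0.17, edgeR adjusted p = 0.00771). Sox17 and Crip1 missed the threshold with cells thinned to 500 UMIs (edgeR adjusted p = 0.154 and 0.119, in ranges over 15 alternatives of 7.0e-04 to 0.154 and 1.1e-04 to 0.21). Crip1 also missed it without WT3.

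Of 30 arterial genes outside the rule, 29 were in the table and 8 passed the filter on low counts. Of these 8, 6 were higher in arterial cells (Mgp, Tm4sf1, Edn3, Glul, Crip1 and Sox17) and 0 lower, with a median log2 ratio of 0.79 beside 0.01 over all 937 genes. Without the limit 12 were tested and 8 were higher, while 2 were lower, Clu, which encodes clusterin (-1.46 ± 0.36, edgeR adjusted p = 0.015), and S100a6, a calcium-binding protein (-3.75 ± 0.39, edgeR adjusted p = 3.5e-05). Much of the list was too sparse to test. Over all 267 arterial cells the gap junction gene Gja4 had 31 UMIs, Gja5 had 2, the Notch targets Hey1 and Hey2 had 39 and 10, the Notch ligands Dll4 and Jag1 had 12 and 48, and Efnb2, which encodes the arterial ephrin B2, had 16. Of 17 Notch pathway genes, 2 were tested and 0 passed, with log2 ratios within the limit of -0.39 ± 0.31 for Notch1 and 0.14 ± 0.27 for Hes1. The other members were too sparse to test, so the pathway as a whole was not assessed at this depth.

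Other genes higher in arterial cells were Cdkn1c, a cell cycle inhibitor (658 ± 169 against 231 ± 68.4 CPM, log2 ratio 1.49 ± 0.22), Igf2, a growth factor (855 ± 448 against 151 ± 108 CPM, 2.05 ± 0.34), Cp, ceruloplasmin (1074 ± 210 against 557 ± 185 CPM, 0.96 ± 0.19), the adaptor Cd2ap (0.62 ± 0.14) and Ly6a (0.47 ± 0.11). Their edgeR adjusted p-values were 3.1e-04, 9.6e-04, 0.00431, 0.0125 and 0.0125. Cd2ap missed the threshold without WT3 and without KO3, and Ly6a without KO1. Ly6a was the only one of 13 tested barrier and transport genes to pass within the limit, and that list had a median of -0.04. Without the limit 5 of 14 were higher (Abcc4, F11r, Ly6a, Ly6e and Slc2a1) and 0 lower, with a median of 0.55. Over all genes there, 116 of 1724 were higher and the median was -0.02. The glucose transporter gene Slc2a1, in the same list, was at 2183 to 4306 CPM of all UMIs in arterial cells without the 1% limit. Other endothelial cells were at 1702 ± 517 CPM without it, with a log2 ratio of 0.79 ± 0.19 (edgeR adjusted p = 0.0124). Within the limit, where Slc2a1 did not pass, other endothelial cells were at 2142 to 3762 CPM. That range is from a different set of cells than the arterial range given.

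Markers of neighbouring cell types stood higher in the arterial class. Within the 1% limit, 7 smooth muscle markers summed to 495 to 1224 CPM of all UMIs in arterial and 317 to 442 CPM in other endothelial cells, with Cnn1 at 0 in both. The 7 fibroblast markers, which include Igf2, summed to 550 to 1504 CPM against 87.3 to 328 CPM, and 7 pericyte markers to 3512 to 7980 CPM against 2926 to 4141 CPM. WT2 was highest in arterial cells for all 3 lists. The pericyte gene Rgs5 passed (0.54 ± 0.15, edgeR adjusted p = 0.0454) at 11363 CPM in WT2 and 4469 to 5960 CPM in the other 5 libraries. With at most 1 UMI of mural markers per cell, Tm4sf1 (1.77 ± 0.22), Edn3 (1.67 ± 0.31), Sox17 (0.88 ± 0.24), Timp3 (1.17 ± 0.20) and Glul (1.07 ± 0.20) had ratios at least as large and passed, while Mgp, Igf2, Cp and Cdkn1c did not reach the count needed for a test. Crip1 (1.19 ± 0.28) also passed. Ly6a (0.56 ± 0.19) and Cd2ap (0.56 ± 0.23) missed the threshold (edgeR adjusted p = 0.0732 and 0.174). Of the lower genes named below, Slc7a5, Gatm, mt-Rnr2, mt-Nd2 and Nrp1 missed it too. Ctla2a, Car4, Arl4a, Nostrin, Mt1, Tfrc and Rgcc passed. The part of these neighbouring cells in the levels of Mgp and Igf2 was not tested.

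Within the 1% limit, some capillary genes were lower in arterial cells. Car4, membrane-bound carbonic anhydrase 4, was at 1545, 1080, 1390, 1192, 948 and 1235 CPM in arterial cells and at 2018, 2012, 3647, 3227, 2227 and 2204 CPM in other endothelial cells. All 6 arterial values lay below all 6 others (log2 ratio -1.03 ± 0.15, edgeR adjusted p = 2.4e-04). Ctla2a, an inhibitor of cysteine proteases that is not on the capillary list, was at 1545, 376, 1463, 871, 1249 and 668 CPM against 2924, 1595, 2863, 2839, 2673 and 2490 CPM (-1.39 ± 0.16, edgeR adjusted p = 1.7e-05). It was lower in arterial cells of every library. Neither gene passed without the 1% limit (log2 ratios -0.30 and -0.61, edgeR adjusted p = 0.459 and 0.124).

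Of 17 capillary genes, 15 were tested within the limit, 5 were lower, 0 higher and 1 had a positive log2 ratio, with a median of -0.45. Without the limit the list had the other direction, with 10 of 15 ratios positive and a median of 0.23 beside -0.02 over all genes. There 1 member was higher, Slco1c1, a thyroid hormone transporter (0.75 ± 0.18, edgeR adjusted p = 0.0134), and 1 lower, Ivns1abp (-1.21 ± 0.24, edgeR adjusted p = 0.00425). The members other than Car4 that were lower within the limit were Ivns1abp, a kelch-domain protein (285 ± 184 against 744 ± 192 CPM, -1.39 ± 0.27), Rgcc, a cell cycle regulator (-0.87 ± 0.20), Slc7a5, the large neutral amino acid transporter (787 ± 278 against 1310 ± 157 CPM, -0.78 ± 0.17), and Tfrc, the transferrin receptor (846 ± 141 against 1455 ± 374 CPM, -0.76 ± 0.17). Their edgeR adjusted p-values were 0.00431, 0.0154, 0.0125 and 0.0141. Slc7a5 missed the threshold without KO1 and without KO3, Tfrc without WT3 and without KO1, and Rgcc without WT3, without KO1 and without KO3. Of 9 tested receptors and mediators of VEGF, angiopoietin and BMP signals, only Nrp1, a VEGF coreceptor, passed within the limit (-0.64 ± 0.17, edgeR adjusted p = 0.0406). Nrp1 missed the threshold when any library but KO2 was left out. Without the limit 3 of 9 tested were higher (Acvrl1, Eng and Id1) and 0 lower, with a median of 0.50. Over all genes there, 116 of 1724 were higher.

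Further genes lower in arterial cells were Nostrin, which binds endothelial nitric oxide synthase (-0.81 ± 0.15), the small GTPase gene Arl4a (-0.84 ± 0.14), Mt1 (-0.96 ± 0.19), the creatine synthesis gene Gatm (-0.69 ± 0.15), and the mitochondrial transcripts mt-Rnr2 (-0.39 ± 0.09) and mt-Nd2 (-0.43 ± 0.11). Their edgeR adjusted p-values were 0.00249, 9.6e-04, 0.00431, 0.0125, 0.0132 and 0.0281. Gatm missed the threshold without KO1 and without KO3, mt-Rnr2 without KO1, and mt-Nd2 when any library but WT1 was left out. Of 14 tested immediate early and stress genes 0 passed within the limit, with a median of 0.18. Of 9 tested vasoactive and flow-responsive genes 0 passed, with a median of 0.12. Without the limit 3 of 12 vasoactive and flow-responsive genes were higher (Ece1, S1pr1 and Sdpr) and 1 lower (Gja1), with a median of 0.54. Over all genes there, 116 of 1724 were higher and 70 lower. Klf2, induced by laminar flow, was at 2543 to 3418 CPM of all UMIs in arterial cells without the 1% limit. Other endothelial cells were at 1848 ± 808 CPM without it. Within the limit they were at 1845 to 3779 CPM, from a different set of cells than the arterial range given. Klf2 did not pass against other endothelial cells with or without the limit.

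**Figure D2:**
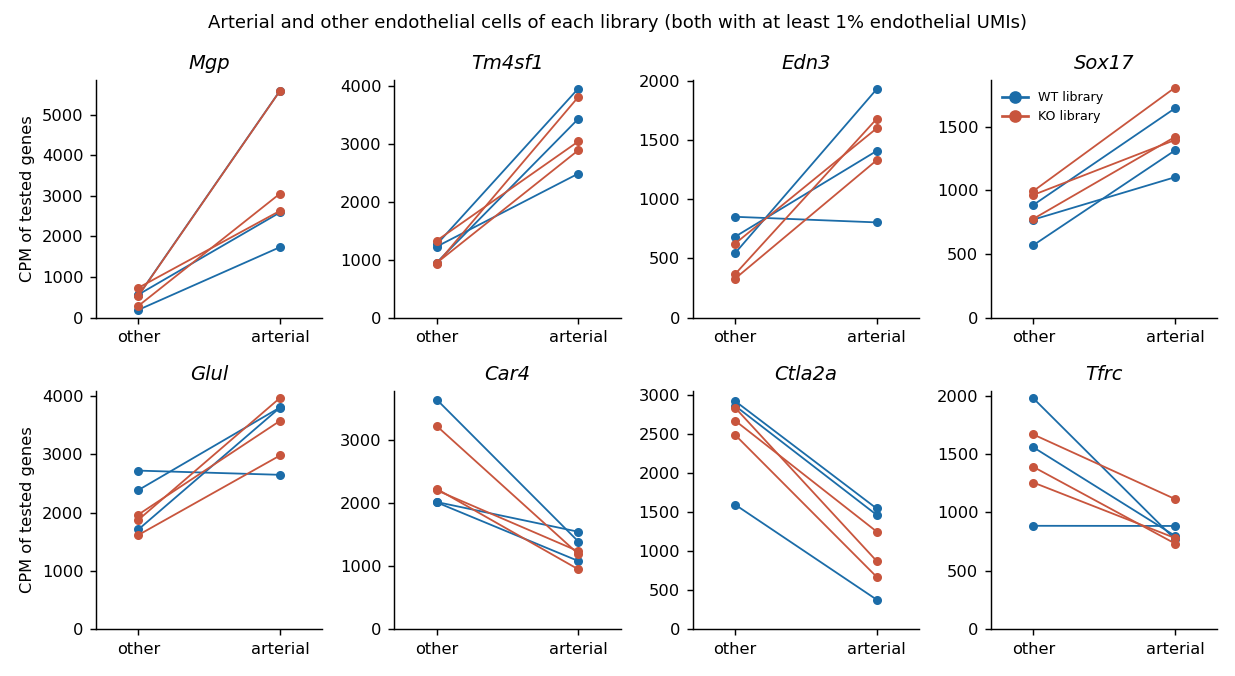
Each line joins the other endothelial and the arterial cells of 1 library (blue WT, red KO; y axis, CPM of the tested genes, from 0). Mgp, Tm4sf1 and Sox17 are higher in arterial cells of all 6 libraries and Car4 and Ctla2a are lower in all 6, while Edn3 is about level in WT3, Glul in WT1 and Tfrc in WT1.

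Levels within the arterial class differed with the rule gene a cell carried. The 100 cells with Edn1 alone were set beside the 167 cells with Sema3g, Bmx or Gkn3. Their values are CPM of all UMIs and a description with no test, since the split uses the rule genes. Cells with Edn1 alone numbered 8, 8, 25, 13, 18 and 28, and cells with the other 3 genes 16, 19, 22, 22, 31 and 57. The former held 10279 to 29310 UMIs per library and the latter 15254 to 67765.

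Mgp was at 229, 97.3, 679, 1041, 441 and 580 CPM in cells with Edn1 alone and at 2819, 1249, 5115, 4023, 2261 and 1859 CPM in cells with Sema3g, Bmx or Gkn3. Tm4sf1 was at 629, 681, 1358, 1966, 637 and 1160 CPM against 2229, 2113, 2875, 2247, 2153 and 1948 CPM. Both were lower with Edn1 alone in every library. Stmn2, a microtubule regulator that is abundant in neurons and on the arterial list, followed the same order at 0 to 195 CPM against 262 to 689 CPM, and so did Edn3, Glul and Crip1. Summed over the 30 arterial genes outside the rule, cells with Edn1 alone had 6117 to 9770 CPM and cells with Sema3g, Bmx or Gkn3 had 11974 to 21021 CPM, beside 5132 to 6509 CPM in other endothelial cells above the 1% limit. Of the 29 in the table, 25 were lower with Edn1 alone in more libraries, 7 of them in all 6, and 1 was higher in more. The same count over all genes was not made, so this list count is a description only. Sox17 was higher with Edn1 alone in 3 libraries and lower in 3.

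Capillary genes had the opposite order. Of 17, all were higher with Edn1 alone in more libraries than they were lower, and 5 in all 6 libraries (Car4, Slc7a5, Slc3a2, Slc16a1 and Slco1a4). This count and that of the venous genes also have no count over all genes beside them, and are descriptions only. Venous genes were mixed: 10 of 14 were higher with Edn1 alone in more libraries, 2 of them in all 6 (Slc38a5 and Tmsb10), and 2 were lower in more, Vcam1 and Darc, the latter on 1 UMI. Car4 was at 1372, 1265, 1061, 1041, 882 and 1160 CPM with Edn1 alone and at 262, 320, 485, 290, 251 and 443 CPM with Sema3g, Bmx or Gkn3, beside 1117 to 2054 CPM in other endothelial cells. Ctla2a was at 1429, 486, 1571, 983, 1127 and 819 CPM against 197, 96, 112, 145, 251 and 148 CPM. Neither gene overlapped between the 2 kinds of cell. Slc38a5, a venous glutamine transporter, was at 114 to 294 CPM with Edn1 alone, at 0 to 71.8 CPM with the other 3 genes and at 87.8 to 270 CPM in other endothelial cells. For Car4, Ctla2a and Slc38a5, cells with Edn1 alone overlapped the other endothelial cells, so that by these genes the label arterial held less well for them than for cells with Sema3g, Bmx or Gkn3. Smooth muscle markers summed to 114 to 686 CPM with Edn1 alone and 761 to 1579 CPM with the other 3 genes. Of the fibroblast markers, Dcn (mean 17 against 375 CPM) and Col1a2 (64.2 against 141 CPM) were lower with Edn1 alone in all 6 libraries. Igf2 (338 against 637 CPM) was lower in 5 and higher in 1. Lum, Col1a1, Col3a1 and Pdgfra had means of at most 18 CPM in either kind of cell. The part of smooth muscle or fibroblast RNA in these differences was not tested.

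**Figure D3:**
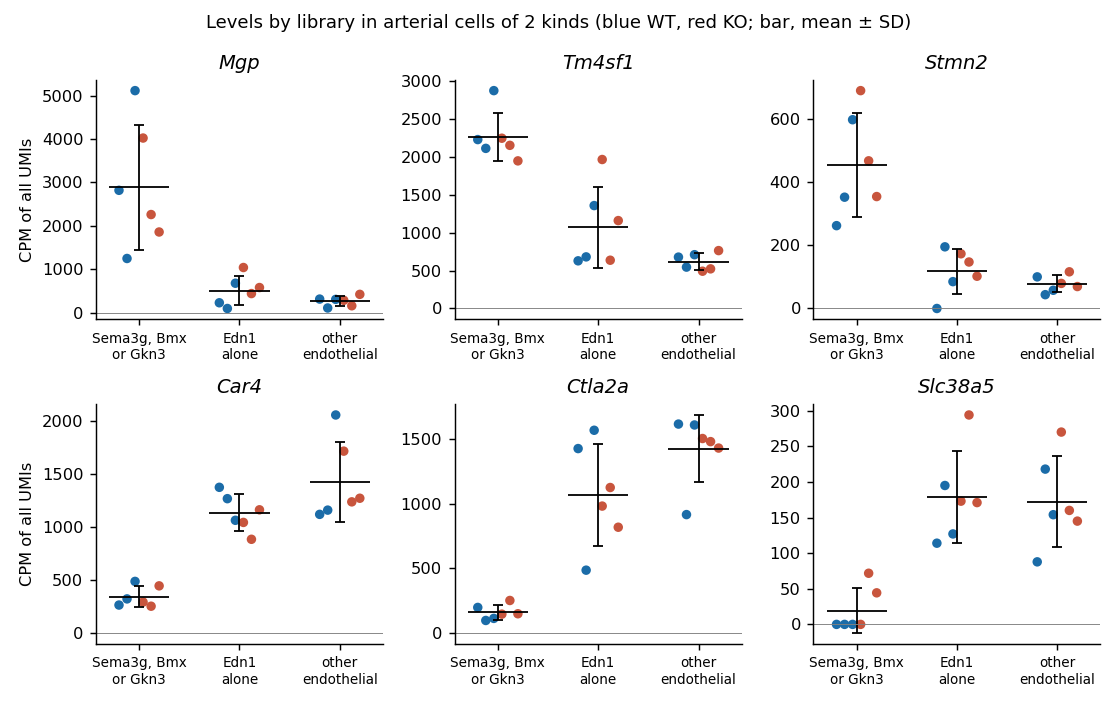
Levels (y axis, CPM of all UMIs) in each library for 3 classes: arterial cells with Sema3g, Bmx or Gkn3, arterial cells with Edn1 alone, and other endothelial cells with at least 1% endothelial UMIs; bars give mean ± SD of 6 libraries. Mgp, Tm4sf1 and Stmn2 are lower, and Car4, Ctla2a and Slc38a5 higher, in cells with Edn1 alone than in cells with the other 3 genes in every library.

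With Edn1 left out of the rule, so that only cells with Sema3g, Bmx or Gkn3 counted as arterial, 103 of 1119 genes passed within the 1% limit, 52 higher (4.65%) and 51 lower (4.56%). Of the 38 genes that had passed with Edn1 in the rule, 34 passed again. Ratios were larger for Mgp (3.21 ± 0.17), Tm4sf1 (1.72 ± 0.14), Ctla2a (-3.06 ± 0.21) and Car4 (-1.88 ± 0.18). The edgeR adjusted p-values were 2.3e-14, 1.0e-10, 8.0e-12 and 1.1e-08. Capillary genes were lower in 10 of 15 tested, with a median of -0.84, and now included Slc3a2 (-1.21), the lipid transporter Mfsd2a (-0.95), the monocarboxylate transporter Slc16a1 (-1.46) and the organic anion transporters Slco1a4 (-0.44) and Slc22a8 (-0.79). Arterial genes outside the rule were higher in 7 of 10 tested, with a median of 1.08, and Stmn2 (2.47) joined the earlier 6. Stmn2 was at 262 to 689 CPM of all UMIs in cells with Sema3g, Bmx or Gkn3. In other endothelial cells above the 1% limit it was at 43.7 to 116 CPM. The filter on low counts can admit a gene through the class where it is high, which favours a ratio of that sign. The list counts and medians in these comparisons are therefore descriptions and not further support. Efflux pumps of the barrier, Abcb1a (-0.48) and Abcg2 (-0.62), and the glycoprotein Bsg (-0.31) were lower, whereas the junction molecule F11r (1.12) was higher.

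**Figure D4:**
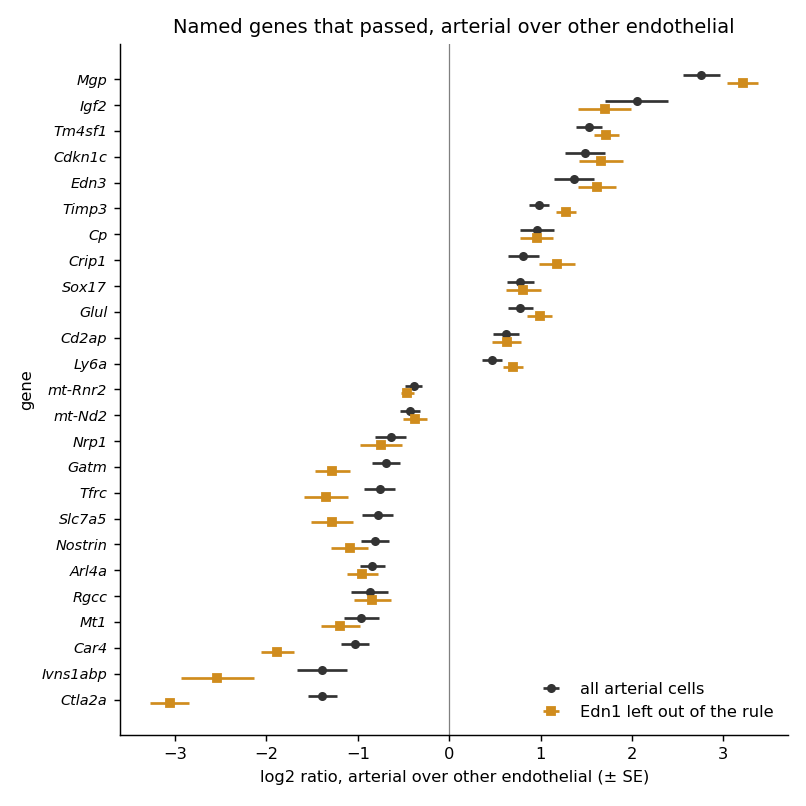
Log2 ratio of arterial over other endothelial cells (x axis, ± SE) for the 25 named genes that passed within the 1% limit, with all arterial cells (black circles) and with Edn1 left out of the rule (orange squares). Leaving Edn1 out moves Mgp from 2.76 to 3.21, Car4 from -1.03 to -1.88 and Ctla2a from -1.39 to -3.06.

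Arterial cells were also compared with vein-marked endothelial cells, 209 of the 726 other endothelial cells, which had a UMI of Slc38a5, Vwf, Nr2f2 or Vcam1. These 4 genes too were left out of the test, and 89 arterial cells (33.3%) also had a UMI of them. The mark thus did not separate the classes, and the cells are not shown to be venous. Against all other endothelial cells without the 1% limit, Vwf was higher in arterial cells (1.35 ± 0.34, edgeR adjusted p = 0.0181). Nr2f2 had a ratio of -0.36 ± 0.22 (edgeR adjusted p = 0.34). Within the limit Vwf did not pass (0.51 ± 0.27, edgeR adjusted p = 0.397). Without the 1% limit, 264 of 821 genes passed (32.2%; 166 without KO2), against a class of which 74.3% of UMIs came from cells below that limit. All 11 tested capillary genes had a positive ratio there, 5 of them higher, with a median of 0.74 beside -0.11 over all genes, whereas within the limit 3 of 13 were positive, 2 were lower and the median was -0.37. Within the limit, 16 of 590 genes passed (2.71%), 9 higher and 7 lower in arterial cells. Mgp (2.85 ± 0.30), Tm4sf1 (1.95 ± 0.22), Timp3 (1.38 ± 0.18) and Edn3 (1.13 ± 0.28) were higher, and Car4 (-1.27 ± 0.18), Ctla2a (-1.35 ± 0.19) and Tfrc (-0.97 ± 0.19) were lower. The edgeR adjusted p-values were 1.8e-05, 2.6e-05, 1.6e-04 and 0.0367 for the former and 2.4e-04, 2.8e-04 and 0.00575 for the latter. Sox17 had a ratio of 0.75 ± 0.20 and missed the threshold (edgeR adjusted p = 0.0549).

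Loss of IDOL was then examined within arterial cells. Mylip itself had 2, 0 and 1 UMIs in the WT libraries and 0 in each KO library. A count of 0 allows up to 3 UMIs, which is 66.8, 62.2 and 30.9 CPM in KO1, KO2 and KO3, and the WT values were 61.1, 0 and 19.9 CPM, of which only that of WT1 exceeded the limit of KO3. Each WT count was itself under 3 UMIs, so a loss of Mylip was not detectable at this depth. In other endothelial cells above the 1% limit Mylip had 4, 2 and 5 UMIs in WT and 0 in each KO library. Lipoprotein receptors that IDOL targets were also sparse. Vldlr had 1 UMI and Lrp8 had 19 UMIs, between 41.4 and 89.1 CPM in the 6 libraries.

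Of 902 genes tested between KO and WT arterial cells, 0 passed in edgeR's quasi-likelihood test (0%), 49 had an unadjusted p under 0.05 (5.43%), and DESeq2 also called 0. With no filter on low counts 5 genes passed, all lower in KO, and they were Ptgds and the globin genes Hba-a1, Hba-a2, Hbb-bs and Hbb-bt. Without KO3, mt-Rnr2 passed as higher in KO. The genes named next had the smallest p in each direction, and each had an edgeR adjusted p of 0.868.

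Rgcc was at 965, 2147 and 1081 CPM of the tested genes in the WT libraries, against 523, 490 and 685 CPM in the KO libraries. The log2 ratio was -1.26 ± 0.35. Pdgfb, the growth factor that recruits pericytes, was at 161, 263 and 244 CPM in WT and at 563, 415 and 631 CPM in KO (1.26 ± 0.42). Nes, which encodes the intermediate filament nestin, was at 322, 789 and 906 CPM in WT and 1609, 1433 and 1100 CPM in KO (0.97 ± 0.35). Rgcc, Pdgfb and Nes were named for their small p, so the separation of their libraries is no result of its own. The differences did not pass adjustment. U2surp (1.28 ± 0.40), Phip (1.25 ± 0.46) and Rbm25 (0.77 ± 0.30) had higher and Zfand6 (-1.01 ± 0.38) and Plat, tissue plasminogen activator (-0.98 ± 0.37), lower values in KO. Igf2 (-1.30 ± 0.42) and Ptgds (-3.02 ± 1.02) were highest in WT2, at 2629 and 13717 CPM. Without WT2 the ratio of Ptgds turned to 1.10. WT2 also had the highest fibroblast marker sum, 2216 CPM of all UMIs against 550 to 824 CPM in the other 5 libraries.

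For the arterial genes, WT and KO libraries overlapped. Mgp was at 2521, 1753 and 5333 CPM in WT and 5189, 2714 and 2579 CPM in KO (log2 ratio 0.11 ± 0.38), and Tm4sf1 at 2413, 3199 and 3799 CPM against 3862, 2752 and 2994 CPM (0.02 ± 0.28). Sox17 (0.18 ± 0.30) and Edn3 (0.11 ± 0.33) also had ratios below their standard errors. Over the 10 tested arterial genes outside the rule, 8 ratios were positive with a median of 0.11, beside 452 of 902 positive and a median of 0.00 over all genes. Capillary genes had a median of -0.21 over 14 tested and the glucocorticoid-induced genes, which include Tsc22d3 (-0.45 ± 0.31) and Cdkn1a (-0.90 ± 0.40), a median of -0.35 over 7, all negative. Apoe was the only tested gene of the list for lipoprotein uptake and cholesterol (-0.10 ± 0.35).

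**Figure D5:**
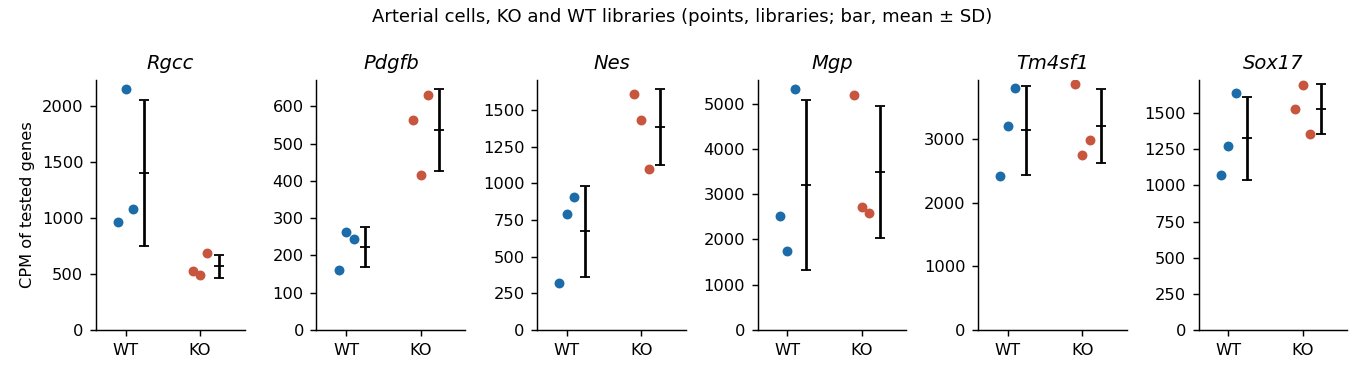
Levels in arterial cells (y axis, CPM of the tested genes, from 0) of the 3 WT and 3 KO libraries, with mean ± SD beside the points. Rgcc, Pdgfb and Nes, named for their small p, have an edgeR adjusted p of 0.868, and the libraries of Mgp, Tm4sf1 and Sox17 overlap.

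Whether the effect of genotype differed between arterial and other endothelial cells was tested as an interaction in edgeR over all 6 libraries. Of 2576 genes, 2 passed (0.0776%), Igfbp2 and Ogn, both lower, and 0 passed within the 1% limit. In arterial cells Igfbp2 was at 0, 511 and 78.7 CPM in WT and 60.6, 0 and 175 CPM in KO, and in other endothelial cells at 5.597, 175 and 35.4 CPM in WT and 1268, 27.0 and 874 CPM in KO. The high values were those of the other endothelial cells of KO1 and KO3. Igfbp2 and Ogn both missed the threshold without WT2 and without KO1, and Ogn also without KO3, while 17 genes passed without KO2. Summed fibroblast markers there were 2761 and 3485 CPM of all UMIs in KO1 and KO3 and 138 to 1161 CPM in the other 4 libraries.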

How the data were processed

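Per the labels, mouse hypothalamus was profiled by Drop-seq in 6 libraries, 3 WT and 3 KO. The authors deposited a single matrix of raw counts (UMIs), covering 18204 genes in 13994 barcodes. Per the submitters' processing notes, bcl2fastq and STAR 2.5.0c were used with mm10 and GRCm38. The counting program, gene annotation and strand setting are not given in the sources used here.

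The cell rule, the gene lists and the tests were chosen with earlier results of these data known. Cells were selected as the report states, and UMIs were summed per library and class. Genes were filtered with filterByExpr, scaled by TMM and tested with edgeR 4.0.16 (quasi-likelihood F test, R 4.3.3, threshold 0.05 after Benjamini-Hochberg adjustment over all genes tested). The standard error is the log2 ratio divided by the square root of F. CPM of the tested genes uses the summed UMIs of those genes, and CPM of all UMIs uses the class total. DESeq2 1.42.0 was an alternative. Other alternatives were RLE scaling, no gene filter (at least 3 UMIs in all), robust settings, at least 2 arterial UMIs, Edn1 left out, at least 500 genes, at most 10% mitochondrial UMIs, doublets left out, 0 UMIs of other types, cells thinned to 500 UMIs, each library left out and the replicate number as a block. The 1% limit on endothelial UMIs, with its own alternatives, and limits on mural, glial, fibroblast and macrophage markers were added after the data had been seen. Scripts were tested on simulated counts.

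Doublets were called per library with Scrublet in scanpy 1.11.5 (expected rate 5%). Named genes were the rule genes and Mylip, up to 12 genes with the smallest p in each direction of a comparison (5 where fewer than 3 passed), list members with the smallest p or that passed, and the 10 highest genes. Some genes that this rule reached are not reported here. Stmn2, Slc38a5, Slc3a2, Tmsb10, Vcam1, Darc, Slc2a1, Klf2, the Notch and gap junction genes with their UMIs, the genes named under the rule without Edn1 and the vein-marked cells, and Vldlr and Lrp8 were named from their lists after their values were seen. The 11 lists were arterial genes outside the rule, Notch pathway, matrix, vasoactive and flow-responsive, venous, capillary, barrier and transport, VEGF, angiopoietin and BMP receptors, IDOL and lipoprotein uptake, immediate early and glucocorticoid-induced genes. Of their members 1 was not matched in the table and 3 were matched by an older symbol. Marker sums for 7 smooth muscle, 7 pericyte, 7 fibroblast, 7 astrocyte and 5 red blood cell genes were computed beside them. Coordinates are GENCODE M21 on GRCm38 and promoter windows are from RefSeq on GRCm38.p6. Of the genes the promoter rule reached, Mgp and Sox17 had no entry.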

Additional observations from a re-analysis of the deposited data

Results flagged for a closer look

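The effect of genotype on Igfbp2 differed between arterial and other endothelial cells by a log2 interaction of -4.26 ± 0.71 (edgeR adjusted p = 0.0246). It ranged from -5.70 to -3.57 over 17 alternatives and missed the threshold in 6 of them. For Ogn, which encodes osteoglycin, the interaction was -4.13 ± 0.76 (edgeR adjusted p = 0.0416), with a range from -5.16 to -3.44, and 6 of 17 alternatives missed the threshold. Ogn was at 1241, 162 and 604 CPM of the tested genes in other endothelial cells of KO1, KO2 and KO3 and at 60.6, 112 and 135 CPM in their arterial cells.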

How the results depend on the processing

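Counts of genes that passed moved with the settings, and the cause was not tested unless the setting itself left fewer genes or cells. Between KO and WT arterial cells 5 genes passed with no gene filter and 0 to 1 when a library was left out (1 without KO3). Arterial against other endothelial cells gave 121 with DESeq2, 886 with no filter, 105 with 0 UMIs of other types, 31 thinned, 12 with few glial, fibroblast or macrophage UMIs, 54 with few mural UMIs, 38 with the 1% limit and 122 to 191 with a library left out. Within the 1% limit the count was 23 with DESeq2, 73 with no filter, 25 thinned, 67 with at least 2 arterial UMIs, 103 without Edn1, 19 with few mural UMIs, 25 with a 2% limit and 19 to 32 with a library left out, and 13 of 25 named genes passed in each that tested them. Against vein-marked cells it was 1309, 137, 9, 3, 66 and 16 with no filter, 0 UMIs of other types, thinning, few glial, few mural UMIs and the 1% limit, and 166 to 287 with a library left out. The interaction gave 14 with no filter, 4 with at least 2 arterial UMIs, 0 with DESeq2, at least 500 genes, 0 UMIs of other types, thinning, few glial or mural UMIs or the 1% limit, and 0 to 17 with a library left out. The difference in share of arterial cells was -0.368 percentage points with at least 2 arterial UMIs, -0.212 with at most 10% mitochondrial UMIs, -0.139 with 0 UMIs of other types, -1.55 with the 1% limit, -4.06 without WT1, -0.652 without KO2 and 5.05 without WT3, and it was 3.19 with few glial, fibroblast or macrophage UMIs, 3.08 with few mural UMIs, 1.78 with Edn1 left out and 1.42 without KO1. The KO to WT log2 ratio of Ptgds ran from -4.74 without KO3 to 1.10 without WT2. Same-numbered WT and KO libraries had correlations of -0.10, -0.22 and 0.15, and differently numbered ones from -0.24 to 0.31. These are deviations from the means of 3 libraries with few UMIs, so they cannot decide whether the numbers pair the libraries. With the replicate block 0 genes passed between genotypes, 7 passed in the interaction, and the difference in share was 0.576. Fewer UMIs per library limited which genes could be tested.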
